A study of Mus musculus with 16 samples.

Results

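The combined state of FAT10 overexpression and pemafibrate treatment was compared with a control baseline in mouse liver. The comparison rested on the 4 libraries titled Ad-FAT10 Pema and the 4 titled Ad-CTRL CMC, chosen by title alone, 8 of the 16 libraries of the series. The other 8 libraries, 4 Ad-CTRL Pema and 4 Ad-FAT10 CMC, carried the drug or the FAT10 adenovirus alone and served to divide the combined change between the 2 agents. All animals were C57BL/6J wild-type mice that received an adenovirus through the tail vein at 8 weeks of age. The Ad-CTRL CMC animals received a control adenovirus and, 4 days later, the vehicle CMC. The Ad-FAT10 Pema animals received an adenovirus that overexpresses FAT10 and, 4 days later, pemafibrate at 1 mpk. Gavage with drug or vehicle took place 18 h and again 5 h ahead of tissue collection, and food was withheld over the last 5 h. The baseline is thus a liver that carried an adenovirus, not an uninjected one. The labels name neither the promoter nor the species of the FAT10 insert, and the amount of vector that reached the liver was not measured here. An effect of FAT10 and a difference in the response to the 2 vectors cannot be told apart. Titles number the libraries within a group, but no label says that each number is a separate mouse, so the p-values measure the spread between these libraries.

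FAT10, encoded by Ubd, is a ubiquitin-like modifier that is joined to other proteins and delivers them to the proteasome; inflammatory cytokines induce it. Pemafibrate is a selective agonist of PPARα, the nuclear receptor that turns on fatty acid uptake, mitochondrial and peroxisomal oxidation and ketone body formation in the fasted hepatocyte. PPARα agonists are also known to lower acute phase and other inflammatory genes in liver.

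Poly(A) RNA of whole liver gave counts for 55416 genes, of which 14770 had enough counts to be tested. Totals of the 8 compared libraries ran from 18663498 to 28898229 counts, so 3 counts, taken as the floor, corresponded to 0.104 to 0.161 CPM, the gene's counts scaled to a common library total. Levels below are CPM after scaling of the libraries, with the SD over the 4 libraries of a group, and differences are log2 values ± the SE of the fitted model. A gene was called when its adjusted p in edgeR's quasi-likelihood test, taken over all 14770 genes, was under 0.05. The 4 Ad-FAT10 Pema libraries varied more than the baseline: on the third principal component, which held 4.19% of the variance, their replicates 1 and 3 lay at 37.8 and -27.96, the outermost of the 16. Of the 14770 genes, replicate 1 had the lowest level of its group for 4514 and the highest for 5654, and replicate 3 the lowest for 5560 and the highest for 4144. Summed hepatocyte markers were lower in the combined state, at 63930 to 87830 CPM against 130600 to 162500 CPM in the baseline, and no hepatocyte marker was at 0 in any of the 8 libraries. Mitochondrially encoded genes took 4.46 ± 1.16% of the counts in Ad-FAT10 Pema and 7.28 ± 1.20% in Ad-CTRL CMC. In bulk RNA, fewer cells of a type and less RNA per cell cannot be told apart, and the part of these shifts in the results below was not tested.

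Ubd itself was first checked in each library. In the Ad-FAT10 Pema libraries it stood at 546, 442, 391 and 459.6 CPM, and in the Ad-CTRL CMC libraries at 15.2, 8.64, 12 and 9 CPM. The groups did not overlap, and the labels and the gene went the same way in all 8 libraries. Counts from the insert and from the mouse gene cannot be told apart. The net difference was 5.36 ± 0.35, a 41.2-fold higher level (edgeR adjusted p = 1.49e-08). Both agents carried it: the FAT10 adenovirus alone gave 237 ± 116 CPM and pemafibrate alone 27.5 ± 14.4 CPM. Averaged over the other factor, the adenovirus difference was 4.23 ± 0.24 and the drug difference 1.13 ± 0.24 (edgeR adjusted p = 0.00109), so Ubd was higher with the drug as well. Ppara, the receptor of the drug, returned to its starting level: 132, 130.1, 116 and 143 CPM in the combined state against 117, 117, 153 and 120.3 CPM in the baseline, with an averaged adenovirus difference of -0.40 ± 0.11 and an averaged drug difference of 0.43 ± 0.11.

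Over a wide set of genes the combined state differed from the baseline, and the 2 agents contributed in different proportions to the rises and the falls. Of the 14770 genes, 8061 were called (54.6%), 4338 higher (29.4%) and 3723 lower (25.2%), and for 6730 (45.6%) the 4 combined libraries did not overlap the 4 baseline libraries. At least 2-fold differences were called for 1520 genes upward (10.3%) and 1152 downward (7.8%). The net difference of each gene is exactly the sum of 2 averaged differences, the adenovirus difference (Ad-FAT10 minus Ad-CTRL, over vehicle and drug) and the drug difference (pemafibrate minus CMC, over both adenoviruses). The adenovirus difference was called for 8397 genes (56.9%), higher for 28.5% and lower for 28.3%, and the drug difference for 5907 (40%), higher for 20.2% and lower for 19.8%. Both were called with the same sign for 1803 genes, referred to as adding (12.2%), and with opposite signs for 1689, referred to as opposing (11.4%). The adenovirus raised 694 of the opposing genes (4.7%) and lowered 995 (6.74%). A further 4905 genes had only the adenovirus difference called (33.2%), 2415 only the drug difference (16.4%), and 3958 neither (26.8%).

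**Figure D1:**
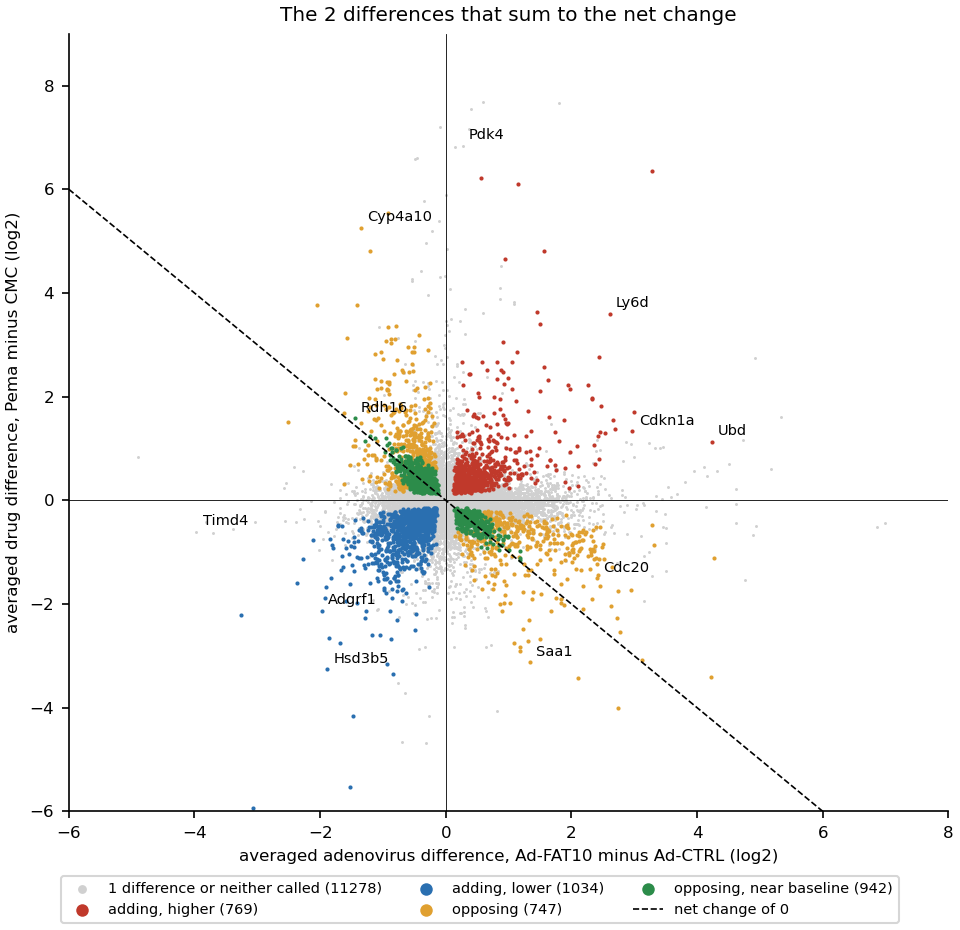
Averaged adenovirus difference (horizontal axis, log2) against averaged drug difference (vertical axis, log2) for the 14770 genes tested, 1 point per gene. The dashed line marks a net change of 0; the 942 green points are opposing genes near the baseline, the 769 red and 1034 blue points are adding genes, and the 2 differences of a point sum to its net difference.

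Among strong rises the most frequent class was the adenovirus difference alone, and among strong falls it was the adding class. Of the 1520 genes at least 2-fold higher, 840 (55.3%) had only the adenovirus difference called, 301 (19.8%) were adding and 212 (13.9%) had only the drug difference called. Of the 1152 genes at least 2-fold lower, 572 (49.7%) were adding, 310 (26.9%) had only the adenovirus difference called and 243 (21.1%) only the drug difference. These shares are descriptions of how genes were sorted and were not tested against each other.

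The steepest rises were drug-driven lipid genes together with a few genes that the adenovirus raised. Pdk4, the kinase that holds back pyruvate dehydrogenase during fasting, was at 342, 382, 625 and 461 CPM in the combined state and at 3.23, 2.77, 3.97 and 3.14 CPM in the baseline. Its net difference was 7.11 ± 0.27, a 138-fold higher level (edgeR adjusted p = 5.82e-11). Genes named for the largest rises or falls were chosen among called genes whose 2 groups did not overlap. The separation of their libraries therefore follows from that choice. Cyp4a14, a fatty acid omega-hydroxylase, stood at 6364, 7657, 7176 and 7476 CPM against 9.74, 112, 48.4 and 35.3 CPM. The baseline of Cyp4a14 varied widely: the net difference of 7.12 ± 0.51 became 7.84 without Ad-CTRL CMC replicate 2. Acot2, a mitochondrial acyl-CoA thioesterase, rose from 5.33 ± 1.14 to 584 ± 40.5 CPM. Cyp4a14 and Acot2 have near-identical relatives, and no source used here says how counts were divided among such copies. Cpne5, a calcium-binding copine, reached 24.9 ± 5.43 CPM from a baseline of 0.075 ± 0.0269 CPM, which lies below the floor, so its fold change is not given. Cbr3 and Gsta1, enzymes of carbonyl reduction and glutathione conjugation, rose from 0.821 ± 0.149 to 48.9 ± 32.6 CPM and from 0.998 ± 0.113 to 27.2 ± 15.5 CPM. In both of these the lowest combined library was replicate 1, at 13.7 and 9.42 CPM, still above each baseline library. Of their averaged differences only that of the adenovirus was called. For Cbr3, but not Gsta1, the combined group was also called above each group with 1 agent. Cbr3 stood at 12.1 ± 9.91 CPM under the adenovirus alone and 1.02 ± 0.26 CPM under the drug alone.

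The steepest falls held 3 genes of resident liver macrophages, Timd4, Cd163 and Vsig4, which clear dying cells, haemoglobin and complement-coated particles. Timd4 was at 0.232, 0.381, 1.07 and 0.39 CPM in the combined state and 12.1, 13, 14.7 and 12.1 CPM in the baseline. Its net difference was -4.58 ± 0.42, or -5.24 without Ad-FAT10 Pema replicate 3, the highest of its group. Cd163 fell by 4.23 ± 0.32 and Vsig4 by 3.93 ± 0.32 on the log2 scale. In all 3 the averaged drug difference was not called and the adenovirus difference was at least as low as -3.39. Hsd3b5, a steroid dehydrogenase of the male hepatocyte, stood at 23, 3.97, 1.57 and 3.48 CPM against 333, 253, 278 and 244 CPM. It fell by 5.14 ± 0.58, and by 6.54 without Ad-FAT10 Pema replicate 1, which lay far above the other 3.

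Genes of fatty acid oxidation, the known targets of PPARα, remained high in the combined state although the adenovirus lowered many of them. Of 46 PPARα targets tested, 45 were called higher than baseline and none lower, with a median net difference of 1.89 against 0.0275 over all genes tested. The median drug difference was 2.26 and the median adenovirus difference -0.26, against -0.0112 and -0.0159 over all genes. The adenovirus difference was called lower for 25 of the 46, and all 25 were opposing genes. Cyp4a10 showed the arithmetic in its levels. It stood at 2250.5, 2722, 2611 and 2766 CPM in the combined state and at 74.1, 255, 230.4 and 127 CPM in the baseline, while the drug alone gave 7301 ± 1716 CPM and the adenovirus alone 74.8 ± 37.3 CPM. All 4 combined libraries lay above the baseline and below the drug alone. Ehhadh, the bifunctional enzyme of peroxisomal oxidation, reached 11040 ± 1474 CPM from 255 ± 27.7 CPM. The carnitine genes Crat and Slc22a5 rose by 2.62 ± 0.13 and 2.45 ± 0.14, and the fatty acid transporter Slc27a1 by 2.56 ± 0.18. Each had an opposing averaged adenovirus difference. Crat was at 45.4 ± 6.63 CPM under the adenovirus alone and 44.7 ± 8.29 CPM in the baseline. Its adenovirus difference was 0.02 with vehicle and -0.58 with the drug.

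**Figure D2:**
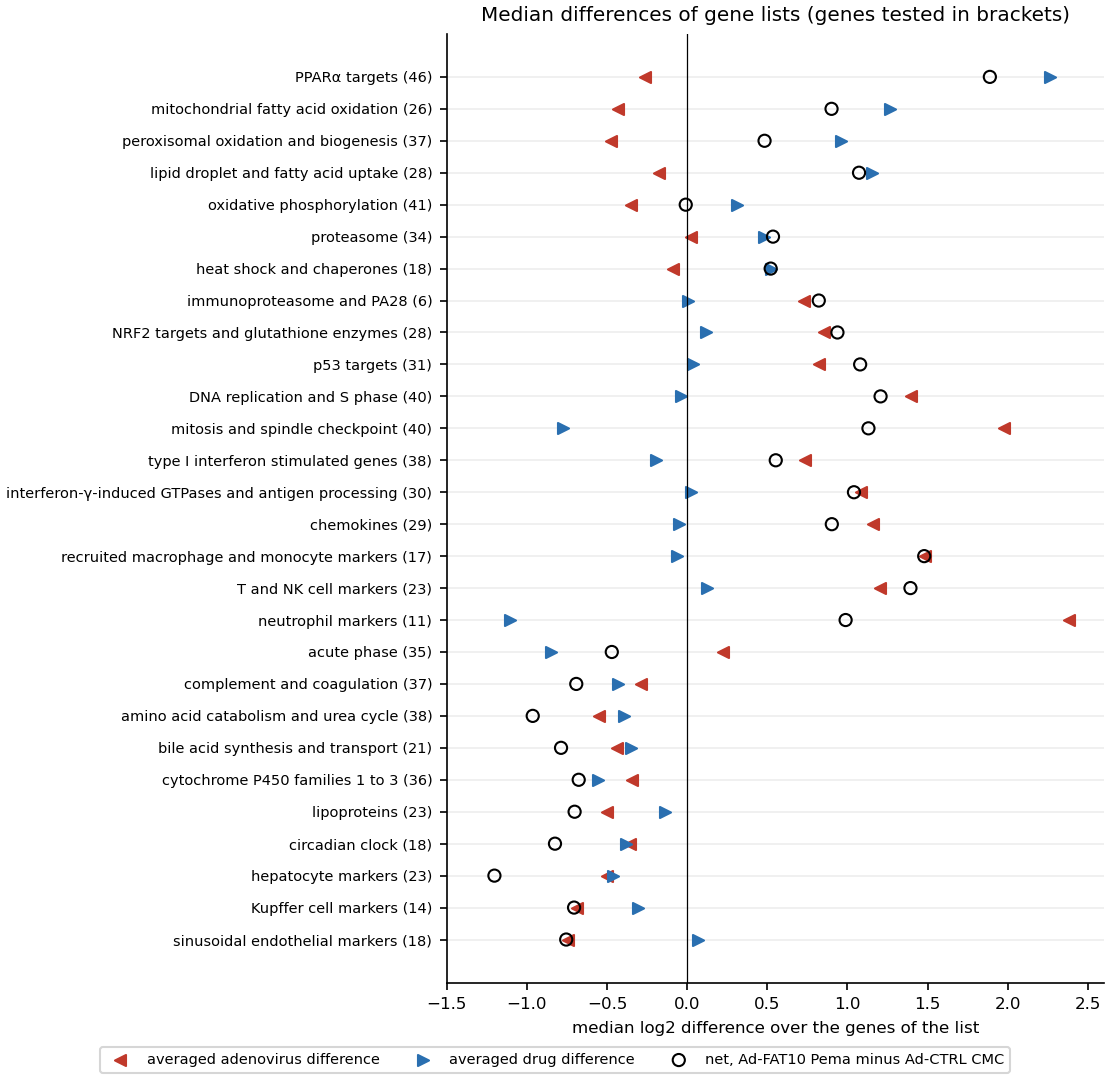
Median log2 difference over the tested genes of 28 gene lists, with the number of genes tested in brackets. Left-pointing triangles are averaged adenovirus differences, right-pointing triangles averaged drug differences and open circles the net; the net of PPARα targets lies at 1.89 and that of oxidative phosphorylation at -0.01, between triangles of opposite sign.

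A few PPARα targets were pushed up by both agents. Cd36, the plasma membrane fatty acid translocase, was at 324, 320.2, 234 and 286 CPM in the combined state and at 27.4, 23.3, 38.7 and 33.4 CPM in the baseline. The adenovirus raised it by 0.58 ± 0.14 and the drug by 2.66 ± 0.14, for a net 9.47-fold rise. Plin2, a lipid droplet coat protein, rose 5.65-fold and Fabp4, a fatty acid binding protein, 11-fold, both with only the drug difference called. Lipid droplet and uptake genes as a list were called higher for 22 of 28, with a median of 1.07.

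At the other end, Cpt1a, the carnitine palmitoyltransferase that admits fatty acids to mitochondria, was the 1 PPARα target not called, and it is named here after its values were seen. It stood at 633, 586, 651 and 645 CPM in the combined state and 596, 568, 694 and 647 CPM in the baseline, with a net difference of 0.01 ± 0.13. Drug alone gave 896 ± 130 CPM and adenovirus alone 531 ± 100.3 CPM, on either side of the baseline. Mitochondrial oxidation genes were called higher for 19 of 26 and lower for 2, and peroxisomal genes higher for 21 of 37 and lower for 8. In these 2 lists 17 and 22 genes were opposing. For ketone bodies, Acat1 and the monocarboxylate transporter Slc16a1 rose by 1.11 ± 0.13 and 1.85 ± 0.10, and the hormone Fgf21 by 3.03 ± 0.45, whereas Bdh2 fell by 1.48 ± 0.21. The list as a whole had 6 of 8 genes higher and 1 lower.

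Genes that both agents raised numbered 769 (5.21%). Adding here means that both averaged differences were called upward on the log2 scale; it does not mean that the combined effect exceeded the sum. In 272 of the 769 (35.4%) the combined group was also called above each group that had 1 agent, against 321 of all genes tested (2.17%), a number that partly follows from how adding was defined. Ly6d, a small membrane-anchored protein of the Ly6 family, was such a gene. It stood at 87.7, 131, 110.1 and 109 CPM in the combined state, against 1.29, 1.34, 1.89 and 1.34 CPM in the baseline, with 29.5 ± 9.91 CPM under the drug alone and 14.8 ± 9.8 CPM under the adenovirus alone. No combined library was as low as any library of the other 3 groups.

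Cdkn1a, the p53 target that blocks cyclin-dependent kinases, followed the same order. Its levels were 96, 74.9, 115 and 91.7 CPM in the combined state and 4.34, 4.94, 5.36 and 4.48 CPM in the baseline, with means of 14.8 under the drug and 46.1 under the adenovirus. The net rise was 19.7-fold (4.30 ± 0.23, edgeR adjusted p = 7.35e-10). Cox6b2, an alternative subunit of cytochrome c oxidase, rose by 5.19 ± 0.33 and Prrg4, a transmembrane Gla protein, by 3.61 ± 0.16. Tubb2a, a β-tubulin, rose 9.54-fold but ranged from 67.5 to 387 CPM among the combined libraries. Of 31 p53 targets tested, 21 were called higher and 3 lower, and both agents raised 6; Eda2r and Zmat3, by contrast, rose by 3.24 ± 0.24 and 1.53 ± 0.10 with only the adenovirus difference called.

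The proteasome, to which FAT10 delivers its conjugates, rose as a group. Of 34 constitutive subunits and assembly factors, 29 were called higher and none lower, with a median net difference of 0.54, and the drug difference was called higher for 33 of the 34. Psmd4, the ubiquitin receptor of the regulatory particle, was at 281, 289, 279.9 and 289.8 CPM in the combined state and at 122, 124, 125 and 104 CPM in the baseline. That rise (1.26 ± 0.09) came with only the drug difference called. Psma1, a subunit of the outer ring of the core, rose by 1.00 ± 0.11, of which 0.42 ± 0.08 was the adenovirus difference and 0.58 ± 0.08 the drug difference. For the immunoproteasome and its activator all 6 genes were called higher, with a median adenovirus difference of 0.73 and a median drug difference of 0.00. Psmb8, an inducible catalytic subunit, rose from 31.6 ± 4.55 to 64.7 ± 11.9 CPM. In Psme1 and Psme2, which form the PA28 activator, both differences were called. Ad-FAT10 Pema replicate 1 was the lowest of its group for all 6 immunoproteasome genes and replicate 2 the highest for 5, and replicate 2 was the highest for 25 of the 34 proteasome genes. Summed macrophage markers were higher in the combined state as well (412.6 to 662.5 CPM against 191.6 to 255.6 CPM), and their part in the immunoproteasome rise was not tested. Whether the proteasome and the immunoproteasome lists differ was not tested.

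Chaperones and glutathione enzymes rose through different agents. Of 18 heat shock genes 12 were called higher and 2, Cryab and Dnajb4, lower. Hsp90aa1, the inducible HSP90, was at 723, 509, 426 and 470 CPM against 213, 172, 135 and 117 CPM, with both differences called; the mitochondrial chaperones Hspd1 and Hspa9 rose by 0.92 ± 0.11 and 0.54 ± 0.09 with only the drug difference called. Of 28 targets of NRF2, the regulator of antioxidant genes, and glutathione enzymes, 23 were called higher and 2 lower, with a median adenovirus difference of 0.85 and a median drug difference of 0.12. Srxn1, which repairs oxidized peroxiredoxins, was at 145, 727, 529 and 357 CPM against 43.7, 40.2, 52.2 and 50.4 CPM. The combined libraries of this list were uneven, with replicate 1 the lowest in 19 of the 28 genes and replicate 2 the highest in 22.

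Genes that both agents lowered numbered 1034 (7%) and included many enzymes and carriers of the hepatocyte. In 489 of them (47.3%) the combined group was also called below each group with 1 agent, against 543 of all genes tested (3.68%). Here too the number partly follows from how adding was defined. Gnmt, which uses up S-adenosylmethionine in glycine methylation, stood at 285, 241, 298 and 338 CPM in the combined state and at 1512, 1499.5, 1485 and 1517 CPM in the baseline. Drug alone gave 517 ± 80.2 CPM and adenovirus alone 676 ± 79.2 CPM, so the order baseline, single agents, combination held without overlap between the baseline and any other group. Of 38 genes of amino acid breakdown and the urea cycle, 35 were called lower and 2 higher, with a median of -0.96, and 21 were adding. Prodh, the first enzyme of proline breakdown, fell by 2.75 ± 0.20, Asl of the urea cycle by 1.57 ± 0.13 and Haao of tryptophan breakdown by 1.54 ± 0.11.

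Adgrf1, an adhesion G protein-coupled receptor, and Nrep, a small neuronal regeneration-related protein, were among the genes with the largest adding falls, with Hsd3b5. Adgrf1 was at 0.54, 0.648, 0.682 and 0.455 CPM in the combined state and at 9.91, 11.6, 8.55 and 10.3 CPM in the baseline. The adenovirus lowered it by -1.97 ± 0.19 and the drug by -2.13 ± 0.19, for a 17.2-fold lower level. Nrep fell from 60.4 ± 14.4 to 5.06 ± 2.12 CPM. Slc22a7, an organic anion transporter, fell by 3.78 ± 0.47, and by 4.61 without Ad-FAT10 Pema replicate 1.

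Genes of bile acids, detoxification, growth hormone response and secreted proteins were also called lower more often than the 25.2% of all genes, with both agents lowering only part of each list. Bile acid genes were called lower for 15 of 21 and higher for 3, and 10 were adding. Slc10a1, the bile acid uptake carrier of the hepatocyte, went from 674 ± 109 to 196 ± 42.5 CPM and Slc27a5, which activates bile acids, from 964 ± 66.6 to 316 ± 19.4 CPM. Cytochrome P450 genes of families 1 to 3 were called lower for 20 of 36 and higher for 3, and both agents lowered 12. Cyp1a2 fell by 2.02 ± 0.19 and Cyp2d10 by 1.52 ± 0.14. By contrast Cyp2a4, which has a near-identical neighbour, rose from 2.33 ± 2.28 to 129 ± 59.4 CPM. Of its averaged differences only that of the adenovirus was called, but the combined group was called above each group with 1 agent. Under the adenovirus alone Cyp2a4 was uneven, at 0.825, 0.956, 5.27 and 79.7 CPM. Of 23 genes of the growth hormone and STAT5 axis, 17 were called lower, among them the receptor Ghr (-1.64 ± 0.17) and Igf1 (-1.20 ± 0.14), and both agents lowered 8. Another 4 were called higher, or 2 without Ad-CTRL CMC replicate 1, 3 or 4, and the drug difference was called higher for 5. Complement and coagulation genes were called lower for 26 of 37, with F11 and Klkb1 of contact activation at -1.93 ± 0.12 and -1.74 ± 0.10. Lipoprotein genes were called lower for 17 of 23 and higher for 3, and both agents lowered 7. Apoa1 and Apoc3 fell by 1.31 ± 0.16 and 1.27 ± 0.13. Circadian output genes went with them: 13 of 18 clock genes were called lower, Dbp by -1.60 ± 0.16 and Per2 by -1.19 ± 0.12 among them. Hepatocyte markers as a list were called lower for 20 of 23, with a median of -1.20, and the part of that shift in the falls of single hepatocyte genes was not tested.

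Cancellation back to the baseline, judged by the averaged differences, was found for 942 genes (6.38%). These were opposing genes whose net 95% interval lay within 1.5-fold of the baseline in either direction. They need not have changed under each agent alone. The adenovirus lowered and the drug raised 621 of them (4.2%), and the adenovirus raised and the drug lowered 321 (2.17%). The number follows the margin: 359 genes met the narrower alternative. For 98 of the 942 (0.664%) a small net difference was still called. Oxidative phosphorylation, the respiratory chain and ATP synthase of mitochondria, was the list with the most such genes, 20 of 41. The adenovirus difference was called lower for 31 of the 41 and higher for none, the drug difference higher for 33 and lower for none, and the median net difference was -0.01. In the net 8 were called higher and 6 lower. Leaving out Ad-FAT10 Pema replicate 3 changed the 6 to 3. The combined libraries of this list were ordered alike: replicate 1 was the highest for all 41 genes and replicate 3 the lowest for 38. Uqcrc1, Ndufb8 and Cox5a, of complexes III, I and IV, are examples chosen after their values were seen. Cox5a stood at 114, 106, 95.3 and 98.7 CPM in the combined state and 104, 113, 99.3 and 101 CPM in the baseline, between 146 ± 8.62 under the drug and 84.6 ± 4.12 under the adenovirus. The exceptions at the edges were Cycs, cytochrome c, which rose by 1.18 ± 0.15 with only the drug difference called, and Ndufa2, which remained lower at -0.48 ± 0.12.

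The genes named for the largest opposing differences near the baseline were enzymes in 1 direction. Rdh16, a retinol dehydrogenase, was at 82.1, 117, 81.2 and 128 CPM in the combined state and at 72.2, 97.6, 108 and 91.9 CPM in the baseline. The 2 groups overlapped, although the adenovirus difference was -1.45 ± 0.12 and the drug difference 1.59 ± 0.12. Ces1d, a carboxylesterase that handles triglycerides, and Hacl1, a lyase of peroxisomal fatty acid α-oxidation, had net differences of 0.03 ± 0.21 and -0.14 ± 0.18. Cmbl, a hydrolase, had 205, 181, 151 and 182 CPM against 166, 148, 163 and 133 CPM. Its net difference of 0.24 ± 0.10 was not called (edgeR adjusted p = 0.0555), but was called without Ad-CTRL CMC replicate 1 (0.28) or without Ad-FAT10 Pema replicate 3 (0.31), within the margin in either case.

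In the reverse direction, Il22ra1, the receptor chain for interleukin 22, was at 6.75, 5.11, 3.15 and 4.85 CPM in the combined state and at 4.58, 6.51, 4.58 and 3.24 CPM in the baseline. Adenovirus alone gave 9.52 ± 1.94 CPM and the drug alone 1.92 ± 0.367 CPM. Mbl2, a lectin that starts complement, and Rgs12, a regulator of G protein signalling, had net differences of -0.12 ± 0.14 and 0.20 ± 0.14. For these 3 genes the 4 combined libraries overlapped the baseline.

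**Figure D3:**
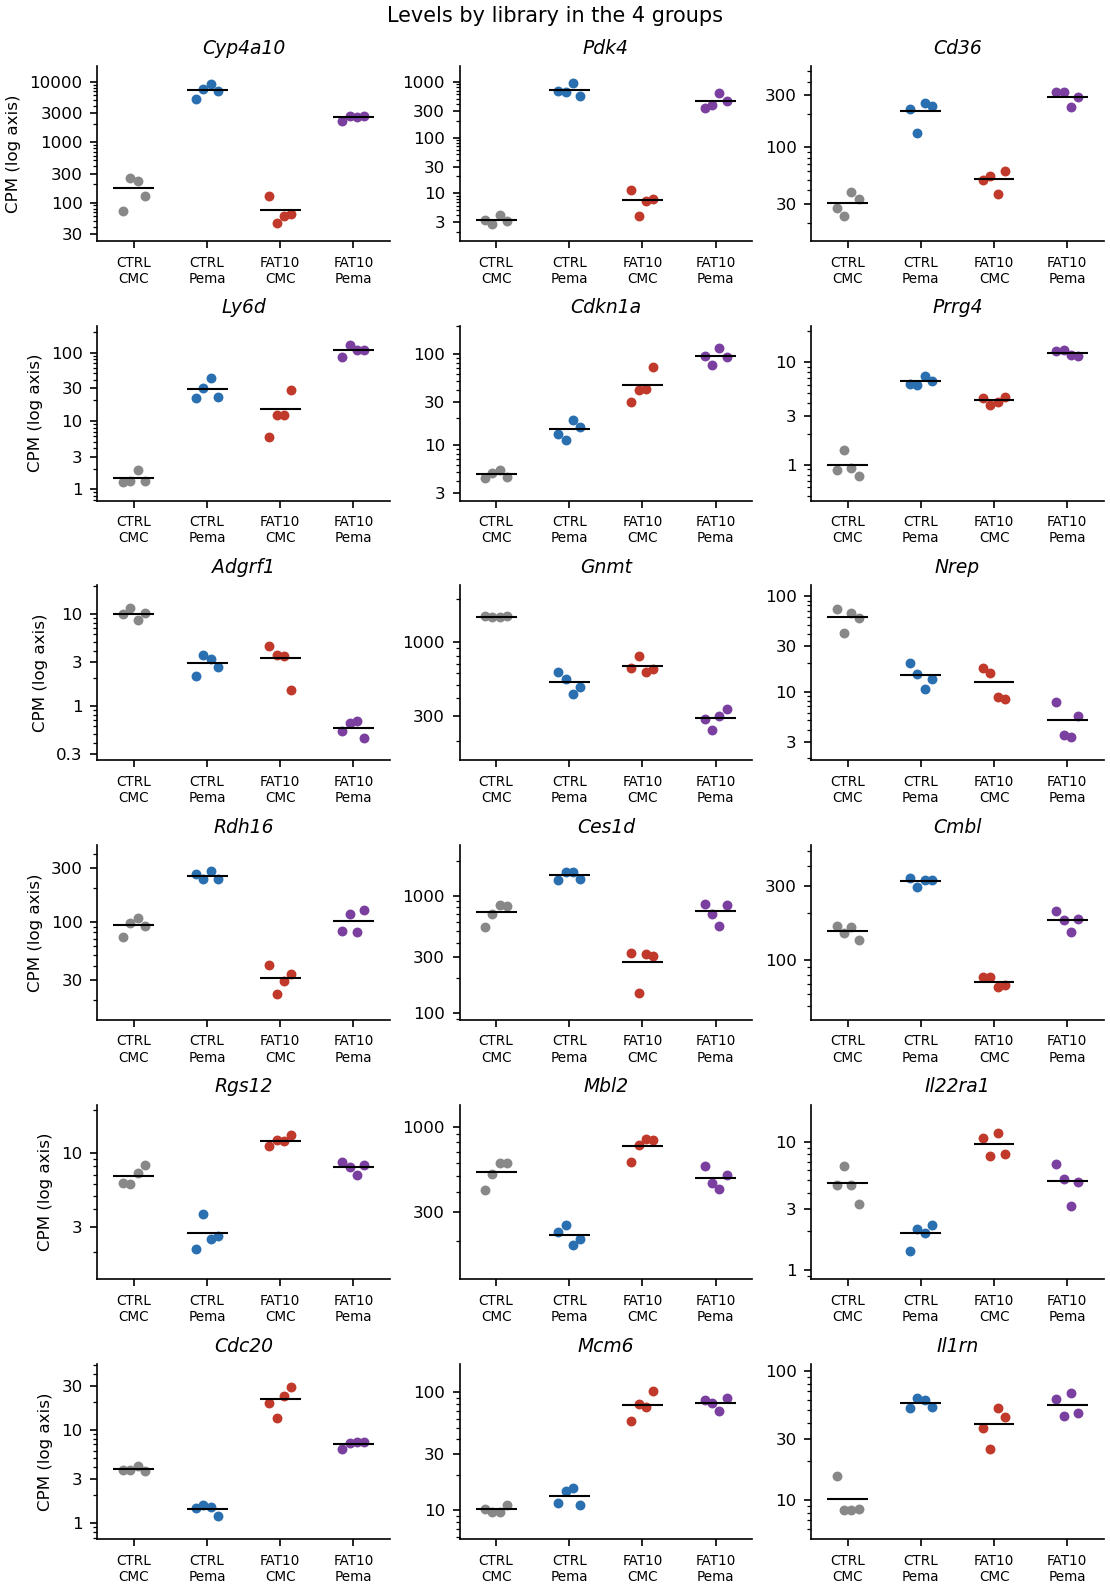
CPM of 18 genes on log axes, 1 point per library in the 4 groups, with horizontal lines at the group means (n = 4 each). Rows hold, from the top, genes raised by the drug, adding genes that rose and adding genes that fell. Below are near-baseline genes that the adenovirus lowered, near-baseline genes that it raised, and Cdc20, Mcm6 and Il1rn. In both near-baseline rows the FAT10 Pema points overlap the CTRL CMC points in range, as for Rdh16 at means of 102 and 92.4 CPM. For Cmbl the FAT10 Pema points at 205, 181 and 182 CPM lie above all CTRL CMC points.

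Cell cycle genes divided by phase. Mitosis genes were raised by the adenovirus and mostly lowered by the drug, and most ended above the baseline. S phase genes were mostly raised by the adenovirus, with drug differences in both directions. All 40 mitosis and spindle checkpoint genes had the adenovirus difference called higher, and 36 of 40 had the drug difference called lower and were opposing. Medians were 1.98 for the adenovirus, -0.77 for the drug and 1.13 for the net, with 36 of 40 called higher in the net. Those not called were Aurka, Ccnb2, Cdc25c and Cenpa, and Cenpa, the centromeric histone, was the 1 near the baseline (0.11 ± 0.14). For 40 genes of DNA replication and S phase the medians were 1.39, -0.04 and 1.21. In the net 35 were called higher and 3 lower. The drug difference was called lower for 9 of the 40 and higher for 4, against 19.8% and 20.2% of all genes tested. Whether the 2 lists differ in their response to the drug was not tested. Replicate 1 was the lowest of the combined libraries for 36 of the 40 mitosis genes (90%).

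Promoters of the genes that carry this contrast are shown because they hold short motifs known from cell cycle promoters, at shares of the 2 lists given after the sequences. The windows are RefSeq sequences of GRCm38.p6, the 250 bases before the annotated start, read 5′ to 3′ on the gene's strand. The motif is in capitals, and its distance from the start is counted at its first base in the window. Cdc20 and Top2a carry the cell cycle homology region motif, searched as TTTGAA on both strands. Mcm6 and Mcm5 carry an E2F-type motif, searched as TTTGGCGC on both strands.
Cdc20, chr4:118437344-118437593, minus strand, match at -18: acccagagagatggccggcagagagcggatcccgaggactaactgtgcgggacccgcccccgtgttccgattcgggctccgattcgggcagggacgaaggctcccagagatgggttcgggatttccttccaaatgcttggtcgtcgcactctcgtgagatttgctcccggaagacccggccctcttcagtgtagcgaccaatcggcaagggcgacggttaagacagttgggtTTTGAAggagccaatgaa
Top2a, chr11:99024190-99024439, minus strand, matches at -179 and -23: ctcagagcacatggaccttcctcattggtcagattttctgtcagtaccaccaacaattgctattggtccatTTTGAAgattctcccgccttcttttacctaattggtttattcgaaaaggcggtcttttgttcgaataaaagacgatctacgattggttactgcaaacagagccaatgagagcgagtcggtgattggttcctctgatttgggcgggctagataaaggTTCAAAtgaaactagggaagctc
Mcm6, chr1:128359706-128359955, minus strand, matches at -110 and -47: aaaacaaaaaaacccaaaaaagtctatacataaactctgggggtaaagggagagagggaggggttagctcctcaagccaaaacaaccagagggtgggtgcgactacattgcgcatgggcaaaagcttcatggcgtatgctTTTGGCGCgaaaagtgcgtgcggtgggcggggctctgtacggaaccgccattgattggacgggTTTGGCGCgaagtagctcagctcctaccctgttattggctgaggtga
Mcm5, chr8:75109259-75109508, plus strand, match at -149: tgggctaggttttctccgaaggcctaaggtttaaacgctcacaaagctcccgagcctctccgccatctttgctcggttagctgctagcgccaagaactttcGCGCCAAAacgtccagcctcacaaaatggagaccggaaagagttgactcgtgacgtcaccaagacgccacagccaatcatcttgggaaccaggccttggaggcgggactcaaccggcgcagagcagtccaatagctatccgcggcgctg

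The TTTGAA motif was found in 24 of 32 mitosis genes that had a window (75%), in 4 of 32 S phase genes (12.5%) and in 1637 of 10910 tested genes (15%). A window here is 250 bases before to 50 after the start, and 27025 genes of the genome had one, 20.2% of them with the motif. TTTGGCGC was found in 6 of 32 S phase genes (18.8%), in none of the mitosis genes, in 1.07% of tested genes and in 0.585% of all genes with a window. A related form, TTTCCCGC, was likewise found in 6 of 32 S phase genes (18.8%), in 3.12% of mitosis genes, in 2.21% of tested genes and in 1.24% of all genes with a window. A match is a description of the letters in the window and not evidence of a bound factor.

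Cdc20, the activator of the anaphase-promoting complex, was at 6.18, 7.17, 7.45 and 7.35 CPM in the combined state and at 3.7, 3.7, 4.11 and 3.6 CPM in the baseline. The groups did not overlap, yet the combined state lay far below the 21.3 ± 6.43 CPM of the adenovirus alone. Its adenovirus difference was 2.40 ± 0.14 and the drug lowered it, for a net of 0.90 ± 0.18 (edgeR adjusted p = 0.000438). Hmmr, Kif20a and Ckap2, which act on the spindle, had net differences of 0.80 ± 0.20, 0.76 ± 0.22 and 1.36 ± 0.22. Top2a, the topoisomerase that separates sister chromatids, kept more of its rise, from 6.79 ± 1.51 to 23.3 ± 4.39 CPM. Mcm6, a subunit of the replicative helicase, was at 86.7, 80.9, 70.2 and 89.5 CPM in the combined state and at 10.3, 9.75, 9.66 and 11.1 CPM in the baseline. With the adenovirus alone it was at 79.1 ± 18.8 CPM, so the combined mean of 81.8 ± 8.52 CPM was no lower. Mcm5, Mcm2 and Mcm3 rose 4.64-fold, 5.02-fold and 4.16-fold. Tk1 and Mcm10 were among the S phase genes that fell, at -1.21 ± 0.11 and -1.18 ± 0.17, both adding. Spc25, a kinetochore protein, was the 1 mitosis gene that both agents raised, from 9.94 ± 2.3 to 33.2 ± 6.8 CPM. The mean of Spc25 was 33.6 ± 6.71 CPM under the drug alone, and the combined group was not called above it. Among 35 DNA repair genes 23 were called higher, with the mismatch repair gene Msh6 at 1.01 ± 0.11.

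**Figure D4:**
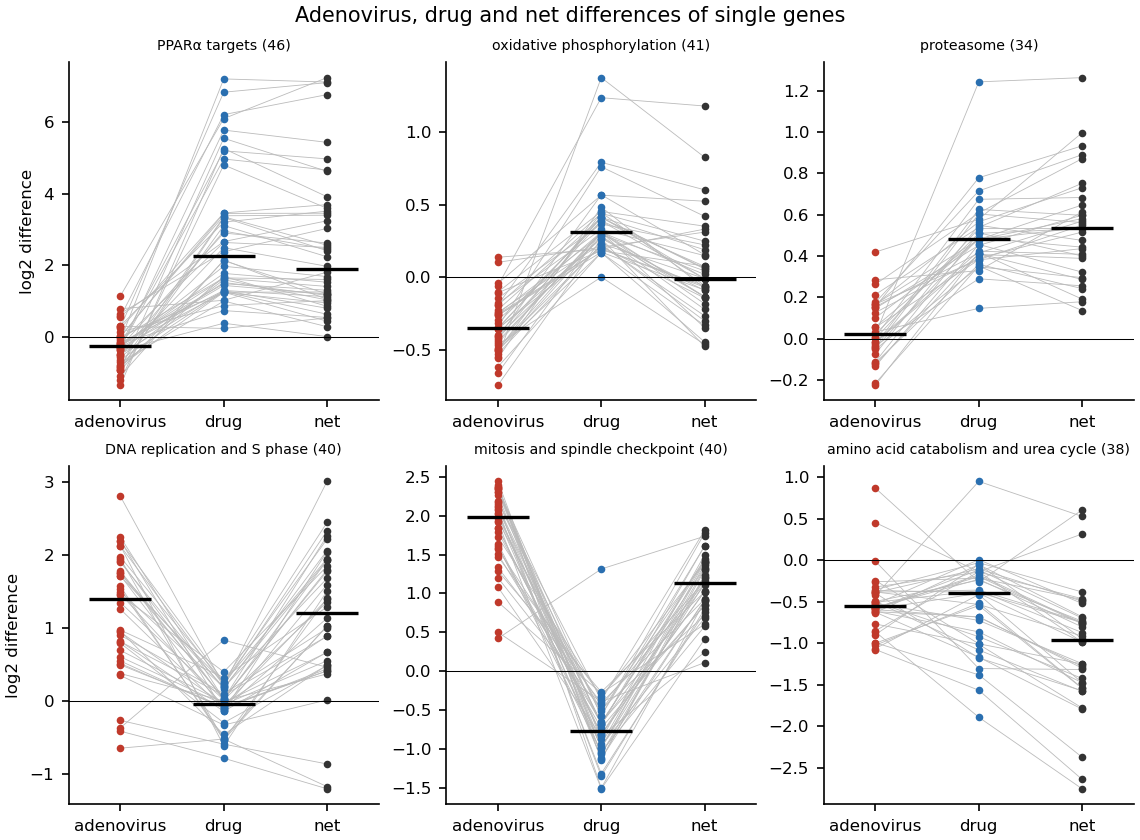
Averaged adenovirus difference, averaged drug difference and net difference (log2, vertical axes of different range) for the single genes of 6 lists, joined by grey lines, with thick bars at the list medians. Mitosis genes fall back from a median of 1.98 to 1.13, S phase genes stay at 1.21, and oxidative phosphorylation genes return to a median of -0.01.

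All 1689 opposing genes, those near the baseline included, were also sorted by their net call. In 257 (1.74%) the net was called with the adenovirus and in 343 (2.32%) with the drug, and in 1089 (7.37%) it was not called. Of these last, 245 (1.66%) were not near the baseline by the interval. Among those with the net called, 98 (0.664%) were near the baseline. Acaa1b and Acadm, thiolase and dehydrogenase of fatty acid oxidation, were among those whose net went with the drug, at 2.41 ± 0.16 and 1.53 ± 0.10. Ppp1r3g, a glycogen-targeting subunit of a phosphatase, rose from 3.74 ± 2.53 to 11.1 ± 2.67 CPM, and Dlec1, a gene named as deleted in lung and esophageal cancer, from 1.69 ± 0.258 to 8.62 ± 4.04 CPM. Fam81a fell by 1.18 ± 0.33 although the adenovirus raised it.

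Acute phase genes, which inflammation induces in hepatocytes, showed both outcomes. Of 35 tested, 6 were called higher and 16 lower; the median adenovirus difference was 0.23, the median drug difference -0.85 and the median net -0.47. Crp and the interleukin 6 receptor Il6ra fell by 1.12 ± 0.12 and 1.34 ± 0.17. Saa1, serum amyloid A1, which has near-identical copies, was at 177, 84.4, 134 and 118 CPM in the combined state and at 1009, 251, 378 and 141 CPM in the baseline. Its groups overlapped, and the net of -1.79 ± 0.68 (edgeR adjusted p = 0.0387) was smaller and not called without Ad-CTRL CMC replicate 1 (edgeR adjusted p = 0.225). Leaving out any of Ad-CTRL CMC replicate 3 or Ad-FAT10 Pema replicates 2, 3 and 4 also ended the call. Lcn2, which binds bacterial iron carriers, had a net of 1.22 ± 0.48 in overlapping groups and lost its call without Ad-CTRL CMC replicate 2, 3 or 4, without Ad-CTRL Pema replicate 3, or without Ad-FAT10 Pema replicate 3 or 4, at 0.96 to 1.28.

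Interferon genes were called higher than baseline more often than the 29.4% of all genes. The drug difference, called for 40% of all genes, was called for few of the interferon-γ list and for more of the type I list. Of 30 interferon-γ-induced GTPases and antigen processing genes, 28 were called higher and none lower in the net, with a median of 1.04; the drug difference was called for 2, both lower. Gbp2, a guanylate-binding protein, was at 171, 369, 424 and 346 CPM in the combined state and at 95, 63.1, 76.6 and 62.4 CPM in the baseline. Replicate 1 was the lowest of the combined libraries for 24 of the 30 genes. H2-Ab1 and H2-D1, of MHC class II and I, rose 2.31-fold and 2-fold. Of 38 type I interferon genes 21 were called higher, 2 lower and 15 not called, with a median of 0.55. The adenovirus difference was called higher for 34. The drug difference was called lower for 10 of the 38 and higher for 3, against 19.8% and 20.2% of all genes, and 9 were opposing. Zbp1 and Bst2, a nucleic acid sensor and a virion tether, were 2 of the 3 type I genes that both agents raised, at 1.78 ± 0.24 and 0.92 ± 0.12. The Gbp2 promoter is shown as an example of the interferon response motif, searched as GAAA, any 2 bases and GAAA on both strands and present in 11 of 19 genes of the first list with a window (57.9%), 14 of 26 of the second (53.8%) 3.96% of tested genes and 3.99% of all genes with a window. Its window is defined as for the cell cycle genes.
Gbp2, chr3:142620413-142620662, plus strand, match at -59: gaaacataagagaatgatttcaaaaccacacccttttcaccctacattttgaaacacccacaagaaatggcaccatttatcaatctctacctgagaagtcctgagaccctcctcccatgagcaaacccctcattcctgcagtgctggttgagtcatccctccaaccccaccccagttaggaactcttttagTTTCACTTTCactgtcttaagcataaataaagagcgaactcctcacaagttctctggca

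Markers of recruited immune cells rose with the interferon genes. Macrophage and monocyte markers were called higher for 16 of 17, with a median of 1.48, and their summed level was 412.6 to 662.5 CPM in the combined state against 191.6 to 255.6 CPM in the baseline. Gpnmb, a glycoprotein of lipid-handling macrophages, rose from 0.317 ± 0.0882 to 9.15 ± 4.37 CPM, and Lgals3 and Cd14 rose 4.48-fold and 5.18-fold. T and NK cell markers were called higher for 18 of 23, at 65.08 to 144.9 CPM against 31.28 to 59.95 CPM in sum; Cd3e and Cd8a rose by 2.04 ± 0.31 and 1.87 ± 0.31. Replicate 1 was the lowest combined library in 19 of these 23 genes and replicate 3 the highest in 22. Chemokines and their receptors were called higher for 21 of 29 and lower for 4; Ccr1 rose 5.09-fold, whereas Cxcl13, which attracts B cells, was at 0.0772, 0, 0.119 and 0.13 CPM, at or near the floor, against 1.7, 2.12, 1.34 and 0.823 CPM in the baseline.

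Markers of other cell types moved in both directions. Kupffer cell markers were divided: 7 of 14 were called lower, Clec4f by -3.45 ± 0.31 among them, 2 higher and 5 not called. Their sum overlapped at 599.9 to 932.6 CPM against 575.2 to 808.8 CPM. Sinusoidal endothelial markers were called lower for 13 of 18, with the lectin Clec4g at -1.46 ± 0.19 and Stab2 at -0.79 ± 0.13, and the drug difference was called for none of the 18 (40% of all genes). Among neutrophil markers the agents opposed each other in 7 of 11, with medians of 2.38 for the adenovirus and -1.10 for the drug. In the net 5 were called higher and 1 lower. The 5 became 2 without Ad-CTRL CMC replicate 2 or 4 or Ad-FAT10 Pema replicate 3, and 3 without Ad-CTRL CMC replicate 3. Csf3r, the receptor for granulocyte colony-stimulating factor, rose by 0.83 ± 0.16 and S100a9 by 1.28 ± 0.40. Summed biliary and progenitor markers were 467.1 to 1157 CPM against 326.7 to 429.9 CPM. Of the 13 tested, 4 were called higher and 1 lower, against 29.4% and 25.2% of all genes. The 4 became 2 without Ad-CTRL CMC replicate 2 or 3 or Ad-FAT10 Pema replicate 1 or 3. Summed B and plasma cell markers were 273.5 to 381.3 CPM against 191 to 246.3 CPM, although 6 of 12 were called lower and 1 higher.

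**Figure D5:**
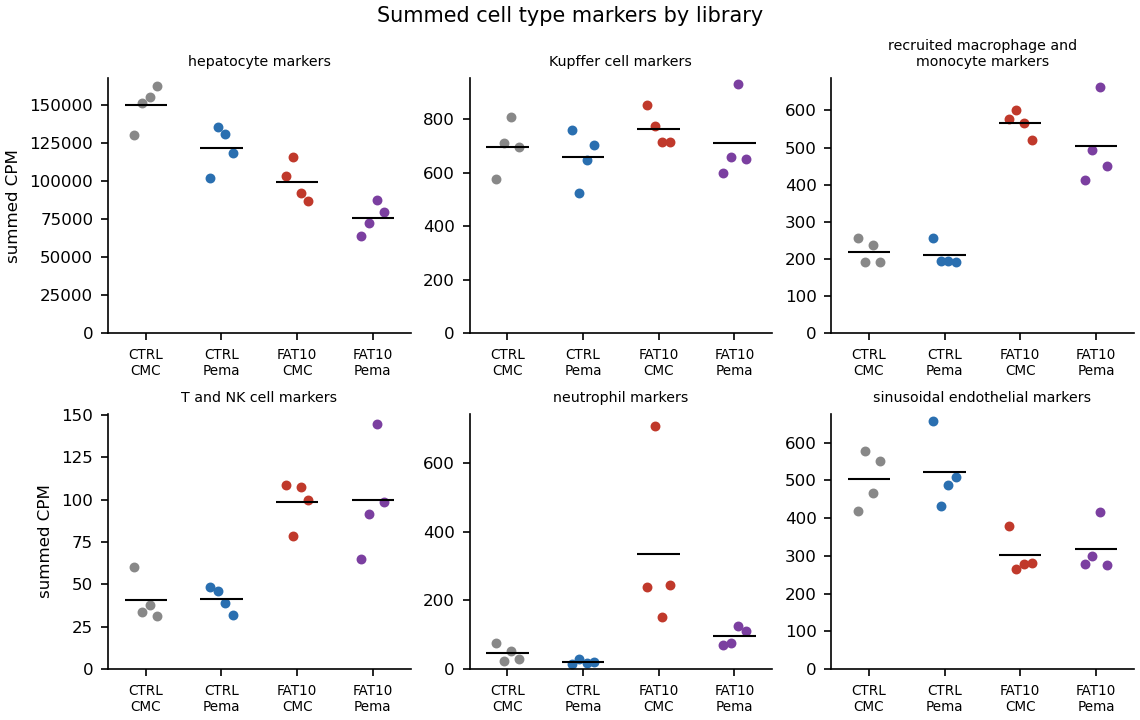
Summed CPM of the markers of 6 cell types, 1 point per library in the 4 groups, with lines at the group means (n = 4 each). Hepatocyte sums are lowest in FAT10 Pema, macrophage and T cell sums are higher in both FAT10 groups, and neutrophil sums lie between 70.98 and 126.7 CPM in FAT10 Pema.

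A departure from additivity was tested for every gene as the drug difference under Ad-FAT10 minus that under Ad-CTRL. It was called for 23 of the 14770 genes (0.156%), 4 higher (0.0271%) and 19 lower (0.129%), with 1591 at an unadjusted p under 0.05; DESeq2 called 116. The called genes included 7 of the 769 genes both agents raised, 2 of the 1034 they lowered and 4 of the 1689 opposing genes. Il1rn, the natural antagonist of the interleukin 1 receptor, was one of them. It stood at 60.6, 44.8, 68.1 and 47.2 CPM in the combined state and at 15.3, 8.36, 8.37 and 8.64 CPM in the baseline, but already at 56.7 ± 5.05 CPM under the drug and 39.2 ± 11.4 CPM under the adenovirus. The combined level was thus no higher than the drug alone, and the departure was -2.00 ± 0.30 (edgeR adjusted p = 0.0106). Rad51b, a protein of homologous recombination, showed the same pattern, at 52.9 ± 10.4 CPM combined and 56.6 ± 8.97 CPM under the drug (-2.07 ± 0.40, edgeR adjusted p = 0.0328). Pdk4 fell short as well (-1.86 ± 0.36, edgeR adjusted p = 0.0492). In Prrg4 the combined libraries, at 12.9, 13, 11.8 and 11.3 CPM, were above both single agents, at 6.46 ± 0.632 and 4.24 ± 0.363 CPM, although the departure was -1.16 ± 0.21 (edgeR adjusted p = 0.0253).

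A level close to the baseline did not always come from 2 opposing changes. Gprin3, an inducer of neurite outgrowth, and Pde7b, a cyclic AMP phosphodiesterase, are named after their values were seen. Gprin3 was at 34.5, 31.4, 21 and 27.4 CPM in the combined state and at 26.5, 31.7, 28.6 and 29.8 CPM in the baseline. It is counted among the 942 near-baseline genes, as its averaged differences were -0.48 ± 0.08 (adenovirus) and 0.45 ± 0.08 (drug). It rose to 54.5 ± 1.26 CPM under the drug alone, but the adenovirus alone left it at 29.7, 26.8, 28.2 and 29.1 CPM, so the drug rise was absent under Ad-FAT10 (departure -0.90 ± 0.16, edgeR adjusted p = 0.0235). Pde7b went from 5.32 ± 0.594 to 18.7 ± 4.05 CPM under the drug, and was at 4.41 ± 0.532 CPM in the combined state and 4.68 ± 1.47 CPM under the adenovirus. Its net of -0.27 ± 0.20 was not called, but the interval passed the 1.5-fold margin, so it was not counted as near the baseline (departure -1.89 ± 0.27, edgeR adjusted p = 0.00856). Requiring the change under each agent alone to be called, in place of the averaged differences, left 721 opposing genes in place of 1689; the change was called for 42.6% of genes under the adenovirus alone and 30.6% under the drug alone. The groups with 1 agent share the Ad-CTRL CMC libraries, so their values are given side by side and not correlated.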

How the data were processed

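Poly(A) RNA of whole liver was sequenced in 16 libraries, 4 in each of 4 groups, of which the 4 Ad-FAT10 Pema and the 4 Ad-CTRL CMC libraries were compared. The authors deposited raw counts per gene for each library; per the submitters' processing notes, STAR 2.7.6, DESeq2 and GRCm39 were named, and no source used here gives the counting tool or whether it used strand. Counts of overlapping genes and of near-identical copies are therefore uncertain. Of 55416 identifiers 52083 (94%) were matched to a symbol. Totals were 18663498 to 28898229 counts per library, and the floor was 3 counts.

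From the counts, edgeR 4.0.16 in R 4.3.3 fitted 1 mean per group to all 16 libraries by quasi-likelihood after filterByExpr and TMM scaling. Contrasts were the net difference, the averaged adenovirus and drug differences and the interaction, with Benjamini-Hochberg adjustment over 14770 genes and calls under 0.05. Intervals are 95% from the model's SE; the script was tested on simulated data. Named genes were Ubd and Ppara, the 8 largest rises and falls without overlap, 6 per class and up to 4 per list. Class members were those whose smaller averaged difference was largest in size. List members were those with the smallest net p. Members and lists were chosen with earlier results of these data known; the genes said to be named or chosen after their values were seen, and Mcm10, Tk1, Aurka, Ccnb2, Cdc25c, Cenpa, Cryab and Dnajb4, lie outside the rule or were singled out after their values were seen. Alternatives were DESeq2 1.42.0, its size factors, no filter, a replicate block, 8 libraries only, other definitions, and each library left out. Same-numbered libraries did not deviate together (r above 0.1 in 3 of 24 pairs), so the numbers were not used as pairs.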

Additional observations from a re-analysis of the deposited data

Results flagged for a closer look

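For some genes described, 1 library lay apart from the other 3 of its group by Dixon's criterion, which chance meets in about 1 in 20 groups. Among the Ad-FAT10 Pema libraries, replicate 1 was low for Ehhadh at 8831 CPM and high for Hsd3b5 at 23 CPM, Slc22a7 at 11.6 CPM and S100a9 at 7.95 CPM, and replicate 3 was low for Haao at 147 CPM. In the Ad-CTRL CMC group, replicate 1 was high for Il1rn at 15.3 CPM and Fam81a at 4.11 CPM. Replicate 2 was low for Cd3e at 0.277 CPM and Gpnmb at 0.185 CPM. Replicate 3 was high for Ppara at 153 CPM and Ly6d at 1.89 CPM and low for Cbr3 at 0.601 CPM. Replicate 4 was low for Psma1 at 76.3 CPM and Psmd4 at 104 CPM and high for Slc37a4 at 321 CPM.

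The drug difference under Ad-FAT10 was called smaller than that under Ad-CTRL in edgeR for 6 genes described: by -0.90 for Gprin3, -2.00 for Il1rn, -1.89 for Pde7b, -1.86 for Pdk4, -1.16 for Prrg4 and -2.07 for Rad51b on the log2 scale.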

How the results depend on the processing

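The net calls kept within 1.5 times of 8061 under every alternative: 8109 with DESeq2, 8046 with its size factors, 8011 without the filter, 7435 from the 8 libraries alone and 7365 to 8217 with any 1 library left out. Adding genes ranged from 1554 to 2050 and opposing genes from 1506 to 1791 with 1 library left out. When each agent's own change had to be called, adding genes numbered 1374 and opposing genes 721. Opposing genes near the baseline numbered 359 at a margin narrower than 1.5-fold and 1324 at 2-fold. The interaction count was the least stable, at 116 with DESeq2, 93 without the filter, and 11 (without Ad-CTRL Pema replicate 3) to 36 (without Ad-CTRL Pema replicate 1) with 1 library left out; the cause was not tested. With the replicate number as a block, 7920 net, 1781 adding, 1646 opposing, 889 near-baseline and 16 interaction calls were made, and 7352 net calls from the 8 libraries with the block. Only 5 of 16 libraries matched best with their own number. The block ended the calls of Lcn2 (edgeR adjusted p = 0.0658) and Saa1 (edgeR adjusted p = 0.052), and DESeq2 that of Lcn2 (adjusted p = 0.0806). Cyp2a4 moved from 5.77 to 6.44 without Ad-CTRL CMC replicate 4 and to 6.73 with the block. The median net difference over all genes was 0.0275 on the log2 scale with TMM, 0.00372 with the DESeq2 size factors and 0 in DESeq2. It reached at most 0.0331, without Ad-CTRL CMC replicate 2. Genes near the floor of 3 counts are limited by depth.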

Other observations

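Genes of sugar handling moved in both directions. Pkm, the pyruvate kinase of proliferating and non-liver cells, rose from 29.5 ± 3.44 to 114 ± 45.4 CPM (1.95 ± 0.20), and Slc2a1, the widespread glucose transporter, from 12.4 ± 0.773 to 28.7 ± 4.24 CPM (1.22 ± 0.12). Slc2a2, the glucose transporter of the hepatocyte, fell from 363 ± 59.7 to 143 ± 13.9 CPM and Slc37a4, which carries glucose 6-phosphate into the endoplasmic reticulum, from 258 ± 42.2 to 75.9 ± 9.97 CPM. Of 32 genes of glycolysis, gluconeogenesis and glycogen, 15 were called higher and 10 lower in edgeR, with a median net difference of 0.23.

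Genes of the unfolded protein response moved little as a list, 4 of 24 called higher and 5 lower, yet Xbp1 and Herpud1, a transcription factor and a degradation factor of the endoplasmic reticulum, fell by 1.22 ± 0.16 and 1.19 ± 0.11, lowered by both agents. Ribosomal protein genes barely moved, with a median of -0.01 over 39. Cholesterol synthesis genes were called lower for 9 of 25; without Ad-FAT10 Pema replicate 2, the highest of its group for 23 of the 25, the count was 16. Krt8, a keratin, rose from 141 ± 23.6 to 382 ± 154 CPM.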
